A study of Mus musculus with 6 samples.

Results

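The genes examined here are the angiopoietin and Tie receptor genes of the mouse: the secreted ligands Angpt1 and Angpt2, the receptor tyrosine kinases Tek (Tie2) and Tie1, and Ptprb, which encodes the vascular endothelial protein tyrosine phosphatase VE-PTP. They were chosen by name, and all 5 were found among the 23473 RefSeq gene rows of the table and passed the filter of a mean of at least 1 RPKM, as did 12320 of those rows.

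Bulk RNA-seq was performed on tumor endothelial cells (TECs) sorted from tumors that Lewis lung carcinoma (LLC) cells, a mouse lung cancer line, had formed under the skin of C57BL/6 mice labelled as 8 weeks old. The NICeCA group (n = 3) carried a Cdh5-driven, tamoxifen-inducible Cre (Cdh5 Cre ERT2) and a Rosa26 allele from which Cre releases the intracellular domain of Notch1, so that the Notch pathway is switched on without a ligand in cells that use the Cdh5 promoter. The control group (Ctrl, n = 3) is labelled wild type. Whether the Ctrl mice carried Cre or received tamoxifen, which the methods give as 100 mg/kg daily for 5 days, is not stated in the sources used here. The methods name male mice and day 14 after inoculation, whereas the labels say that tumors were taken on different days. Cells were captured on CD31 beads, and the labels state a purity above 90%. The comparison asks how Notch activation in the endothelium changes the RNA of TECs, here for the genes through which vessels are held quiet or destabilised.

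In this pathway, ANGPT1 binds TIE2 on the endothelial surface and activates it, which keeps endothelial junctions tight, engages AKT and keeps the transcription factor FOXO1 out of the nucleus. ANGPT2, stored and released by endothelial cells themselves, binds the same receptor but activates it weakly, so that it opposes ANGPT1 in many settings, and it is known as a marker of remodelling and tumor vessels. TIE1 binds no angiopoietin with high affinity and modulates TIE2 in complex with it, while VE-PTP removes phosphate from TIE2 and associates with VE-cadherin.

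Depth on RefSeq rows was 27793301 to 30769916 reads per library. Endothelial marker RNA was uneven among the libraries. The mean of log2(RPKM + 1) over 20 endothelial markers was 5.26, 4.02 and 4.35 in Ctrl replicates 1 to 3 and 4.97, 5.36 and 5.30 in NICeCA replicates 1 to 3. Ctrl 1 thus sat with the NICeCA libraries, and the other Ctrl libraries stood apart from them. The defining markers Pecam1 (135, 47.5 and 82.6 RPKM in Ctrl, 125, 154 and 142 RPKM in NICeCA) and Cdh5 (82.4, 30.9 and 43.3 RPKM in Ctrl, 59.2, 78.6 and 96.5 RPKM in NICeCA) were present throughout. Genes of other cells were present too. Summed RPKM was 7142 to 10061 in Ctrl and 5522 to 9413 in NICeCA for 11 macrophage markers, 117 to 269 and 594 to 1641 for 9 neutrophil markers, 67.6 to 114 and 145 to 241 for 13 pericyte and smooth muscle markers, and 395 to 663 and 190 to 368 for 11 fibroblast markers. Of the 11 tested macrophage markers 3 were called higher and 0 lower, where 5.88% and 7.68% of all tested genes were. The macrophage sum is mostly Lyz2 and the C1q genes, which are markers of that list. For the 20 endothelial markers the summed RPKM was 456 to 1123 in Ctrl and 945 to 1195 in NICeCA. Sums over different genes are not shares of cells. The platelet markers Pf4 (116, 102 and 172 RPKM in Ctrl, 1126, 1035 and 889 RPKM in NICeCA) and Ppbp (5.83, 8.81 and 21.1 RPKM in Ctrl, 177, 173 and 280 RPKM in NICeCA) were higher in every NICeCA library, while the other 9 platelet markers were at 2.58 RPKM or less in each library.

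The 5 genes lie on 4 chromosomes of the GRCm38 build, whose positions the table uses. Tek (chr4:94739300-94874939, plus strand, 23 merged exons in GENCODE M21) and Tie1 (chr4:118471191-118489849, minus strand, 22 exons) share a chromosome. Ptprb is at chr10:116301374-116389538 (plus strand, 35 exons), Angpt1 at chr15:42424725-42676795 (minus strand, 10 exons) and Angpt2 at chr8:18690263-18741562 (minus strand, 10 exons). Angpt2 lies inside Mcph1 on the opposite strand, though the exons of these genes share 0 bases.

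The start regions of Tek and Tie1 are shown from RefSeq (GRCm38.p6, 250 bases before to 50 after the start, 5′ to 3′ in the direction of the gene). Of the 5 genes, these 2 had an entry. The stretches are chr4:94739039-94739338 on the plus strand for Tek and chr4:118489800-118490099 on the minus strand for Tie1, and GENCODE also lists a Tie1 transcript that starts inside the latter. Capitals mark the matches of the 5 motifs searched on both strands, which were the RBPJ core TGGGAA, the FOXO motif GTAAACA, the ETS motif CCGGAAGT, the GATA motif AGATAA and the E-box CACGTG.
Tek: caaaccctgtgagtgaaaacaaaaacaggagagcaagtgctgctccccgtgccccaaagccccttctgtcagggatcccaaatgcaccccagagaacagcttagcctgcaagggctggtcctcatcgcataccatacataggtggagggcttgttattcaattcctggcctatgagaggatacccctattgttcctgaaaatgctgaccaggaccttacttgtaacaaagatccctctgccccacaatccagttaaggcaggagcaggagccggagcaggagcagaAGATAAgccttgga
Tie1: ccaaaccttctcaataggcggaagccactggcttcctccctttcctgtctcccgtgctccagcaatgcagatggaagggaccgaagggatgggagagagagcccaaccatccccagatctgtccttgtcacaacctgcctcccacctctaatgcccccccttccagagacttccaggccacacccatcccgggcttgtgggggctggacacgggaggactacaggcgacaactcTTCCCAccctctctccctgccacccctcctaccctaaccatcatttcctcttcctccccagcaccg
The Tek region held 1 match, AGATAA, 36 bases after the start. The Tie1 region held 1 match, TTCCCA, the reverse complement of TGGGAA, 16 bases before the start. Over 32544 promoters of this length, AGATAA was found in 11.2% and TGGGAA in 25.4%, while GTAAACA, CCGGAAGT and CACGTG were found in 3.66%, 3.92% and 7.17%. The shorter ETS core GGAA, which is also part of TGGGAA and of CCGGAAGT, occurred 9 times in the Tie1 region on either strand, a number that 1.59% of promoters reach. In the Tek region it occurred 2 times, against a median of 3. GC content was 60.3% for Tie1 and 52% for Tek, against a median of 53%. These letter matches describe the sequence and are not binding sites.

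Angpt2 was the member that limma called higher in NICeCA. Tek, Tie1 and Ptprb also had positive differences, which were not called. It was measured at 17.9, 9.53 and 19.7 RPKM in the Ctrl libraries and at 33.2, 33.5 and 41.8 RPKM in the NICeCA libraries. The groups did not overlap, and the lowest NICeCA library lay well above the highest Ctrl library, Ctrl 3. The mean was 15.7 ± 5.43 RPKM (SD, n = 3) in Ctrl and 36.1 ± 4.89 RPKM (SD, n = 3) in NICeCA, a ratio of 2.30. On the log2(RPKM + 1) scale the difference was 1.20 (SE 0.25, 95% interval 0.62 to 1.79), with an adjusted p of 0.0317 in limma over the 12320 tested genes. Of those genes, 5.88% were called higher and 7.68% lower in NICeCA, 13.6% in all, at an adjusted p under 0.05 (43.4% of the calls were higher, or 58.1% after trimmed mean scaling), and 1 of the 5 angiopoietin and Tie genes was called. The exact permutation test gave 0.1, the smallest two-sided p that 3 against 3 libraries allow. Angpt2 ranked 224th of the 12320 genes by its log2 fold change.

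The limma call for Angpt2 held without any one Ctrl library (adjusted p 0.0251 to 0.0442). It was lost without NICeCA 1 (1.26, adjusted p 0.106 in limma), NICeCA 2 (1.25, 0.112) or NICeCA 3 (1.10, 0.0521), although its difference stayed positive in each. Without NICeCA 1, 2 and 3, limma called 105, 27 and 1343 of the 12320 genes, against 1671 with all libraries. With the endothelial marker mean as a covariate the Angpt2 difference was 0.88 with an adjusted p of 0.227 in limma. Under that covariate limma called 0 of the 12320 genes, with 2312 at an unadjusted p under 0.05. In bulk RNA, more cells of a type and more RNA per cell cannot be told apart.

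Angpt1, the activating ligand, was near the lower end of what was tested, at 1.72, 2.22 and 2.00 RPKM in Ctrl and 1.97, 2.18 and 2.38 RPKM in NICeCA. These values overlapped. The means of 1.98 ± 0.249 and 2.18 ± 0.204 RPKM (SD, n = 3 each) differed by 0.09 on the log2 scale (SE 0.13, 95% interval -0.21 to 0.40, limma adjusted p 0.638). The interval leaves out a rise as large as that of Angpt2. Angpt1 rested on 274 to 361 reads per library, with a counting error of up to 6.04%, which is smaller than the spread among the libraries of a group. Pericytes and smooth muscle cells are known sources of ANGPT1. Of 11 tested pericyte and smooth muscle markers, 4 were called higher in NICeCA, where 5.88% of all tested genes were. The median log2 difference over the 11 was 0.77, against 0.66 for the endothelial markers. Platelets carry ANGPT1 as well, and 2 of 4 tested platelet markers, Pf4 and Ppbp, were called higher. The others tested, Itga2b (0.26, limma adjusted p 0.416) and Gp1bb (-0.26, limma adjusted p 0.499), were not called. Whether RNA of such cells entered the Angpt1 level was not tested.

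The table also holds 4 FANTOM3 transcript models that lie on the strand of Angpt1 wholly within its introns, 10613 bases in sum. Their reads numbered 92, 178 and 111 in Ctrl and 30, 64 and 41 in NICeCA, so the groups did not overlap. Of the tested RefSeq genes, 40.9% were also separated in either direction, and the share over FANTOM3 models was not computed. As RPKM over their summed length they were at 0.304 ± 0.104 in Ctrl and 0.117 ± 0.0481 in NICeCA (SD, n = 3 each), a log2 ratio of -1.37 with an exact permutation p of 0.1. The median log2 ratio over 21790 FANTOM3 models with at least 0.1 RPKM was -0.42. Set against the reads of the gene model of Angpt1, the intronic reads came to 33.6%, 49.4% and 34.9% in Ctrl and 10.2%, 20.4% and 11.4% in NICeCA. The sum of the 4 models was thus lower in each NICeCA library, while single models, at 3 to 57 reads, overlapped between the groups in part. These rows were looked at after the level of Angpt1 had been seen. FANTOM3 models antisense to Angpt1 had 653 to 737 bases of its exons within their spans, at 31 to 97 reads per library each. The sources used here do not say whether reads were counted by strand. Whether antisense reads entered the level of Angpt1, and so the ratio of Angpt2 to Angpt1, was not tested.

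The balance of the ligands was compared within each library, where the scaling of the library plays little part. Angpt2 RPKM was 10.4, 4.30 and 9.86 times that of Angpt1 in Ctrl and 16.8, 15.3 and 17.6 times in NICeCA. Every NICeCA library lay above every Ctrl library, and the NICeCA libraries were close to each other while Ctrl 2 was low. Such a ratio does not remove the endothelial share of the library. Ctrl 2 also had the lowest endothelial mean (4.02), while Ctrl 1, at 5.26, lay below every NICeCA library in this ratio as well. Whether the endothelial share enters the ratio was not tested. On the log2(RPKM + 1) scale the excess of Angpt2 over Angpt1 was 2.43 ± 0.624 in Ctrl and 3.54 ± 0.114 in NICeCA (SD, n = 3 each), a difference of 1.11 with an exact permutation p of 0.1. That difference ran from 0.75 to 1.29 without any one library or with a pseudocount of 0.1 or 1. Angpt4, the other angiopoietin of the mouse, was at 0.125 to 0.525 RPKM over the 6 libraries, below the filter.

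**Figure D1:**
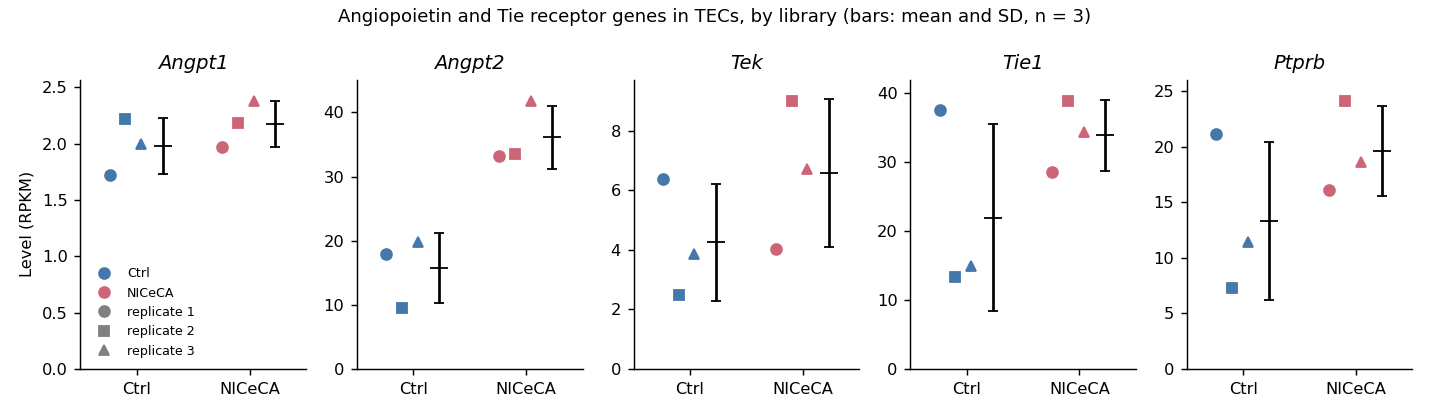
RPKM of Angpt1, Angpt2, Tek, Tie1 and Ptprb in the 3 Ctrl and 3 NICeCA libraries, with 1 point per library and the mean ± SD of each group. Only for Angpt2 do the NICeCA points (33.2 to 41.8 RPKM) all lie above the Ctrl points (9.53 to 19.7 RPKM), and for Tek, Tie1 and Ptprb the points of the groups overlap.

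The plot of RPKM by library shows the same ordering of the Ctrl libraries in Tek, Tie1 and Ptprb, with Ctrl 1 high and Ctrl 2 low. Among the receptors, Tek, which encodes the TIE2 kinase that both ligands bind, was at 6.37, 2.50 and 3.87 RPKM in Ctrl and 4.02, 8.99 and 6.73 RPKM in NICeCA. NICeCA 1 lay between Ctrl 3 and Ctrl 1, so the groups overlapped. The means were 4.25 ± 1.96 and 6.58 ± 2.49 RPKM (SD, n = 3 each), and the log2 difference of 0.54 (SE 0.32, 95% interval -0.20 to 1.28) had an adjusted p of 0.258 in limma.

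Tie1, the co-receptor, was at 37.5, 13.4 and 14.9 RPKM in Ctrl and 28.6, 38.8 and 34.3 RPKM in NICeCA. Ctrl 1 fell among the NICeCA libraries, and the other Ctrl libraries lay below all of them. The means were 21.9 ± 13.5 and 33.9 ± 5.13 RPKM (SD, n = 3 each), with a log2 difference of 0.75 (SE 0.35, 95% interval -0.06 to 1.55, limma adjusted p 0.167). Without Ctrl 1 the difference was 1.20 and passed the threshold, with an adjusted p of 0.0250 in limma.

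Ptprb, which opposes TIE2 by dephosphorylation, was at 21.1, 7.31 and 11.4 RPKM in Ctrl and 16.1, 24.1 and 18.6 RPKM in NICeCA. The groups overlapped again because of Ctrl 1. The means were 13.3 ± 7.11 and 19.6 ± 4.07 RPKM (SD, n = 3 each), and the log2 difference was 0.63 (SE 0.33, 95% interval -0.13 to 1.39, limma adjusted p 0.209). Without Ctrl 1 the difference was 1.00 with an adjusted p of 0.0477 in limma. A pair of FANTOM3 models over the last exons of Ptprb ordered the libraries as the gene did, at 16.1, 4.96 and 7.73 RPKM in Ctrl and 12.4, 18.6 and 14.9 RPKM in NICeCA for 1 of them.

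Tek, Tie1 and Ptprb thus had positive differences that did not pass the test, and their intervals include both no difference and a difference as large as that of Angpt2. Of the 12320 tested genes, 16.5% had all NICeCA libraries above all Ctrl libraries and 40.9% were separated in either direction, and of the 5 angiopoietin and Tie genes 1 was, Angpt2.

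Per length, the order of the 5 genes was partly fixed. Tek and then Angpt1 were the lowest in all 6 libraries, and Ptprb was below Tie1 in all 6. Angpt2 changed place: it was above Tie1 in 1 of 3 Ctrl and 2 of 3 NICeCA libraries, and above Ptprb in 2 of 3 Ctrl and 3 of 3 NICeCA libraries. Angpt2 and Tie1 thus did not differ in level beyond the spread between libraries.

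The receptors followed the endothelial markers of the library. Over the 6 libraries, log2(RPKM + 1) of Tek correlated with the endothelial mean at Pearson r = 0.918 (exact permutation p = 0.00139, 0.00833 after adjustment over 15 relations) and Spearman rho = 1 (exact permutation p = 0.00278, adjusted 0.0208). The same relation had r = 0.989 for Tie1 (exact permutation p = 0.00417, adjusted 0.0104) and r = 0.978 for Ptprb (exact permutation p = 0.00278, adjusted 0.00833), with rho = 0.943 for each (exact permutation p = 0.0167, adjusted 0.0417). Without Ctrl 2 and Ctrl 3, the libraries farthest from the median of the endothelial mean, r was 0.964 for Tek, 0.932 for Tie1 and 0.854 for Ptprb. These p-values come from orders of all 6 libraries, so they also hold the difference between the groups. After each group's mean was taken out, r was 0.887, 0.983 and 0.971, which was not tested. The share of all tested genes with such an r was not computed. None of the 5 genes is in the marker list.

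For the ligands, the relation did not pass the adjusted threshold. Angpt2 had r = 0.784 with the endothelial mean (exact permutation p = 0.0611, adjusted 0.131) and rho = 0.771 (exact permutation p = 0.103, adjusted 0.193), and r was -0.02 without Ctrl 2 and Ctrl 3, so that the pooled relation rests on those libraries. Angpt1 had r = -0.09 (exact permutation p = 0.864, adjusted 0.926) and rho = 0.0857 (exact permutation p = 0.919, adjusted 0.919). After each group's mean was taken out, r was 0.589 for Angpt2 and -0.59 for Angpt1. Whether the r of the ligands differs from that of the receptors was not tested.

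**Figure D2:**
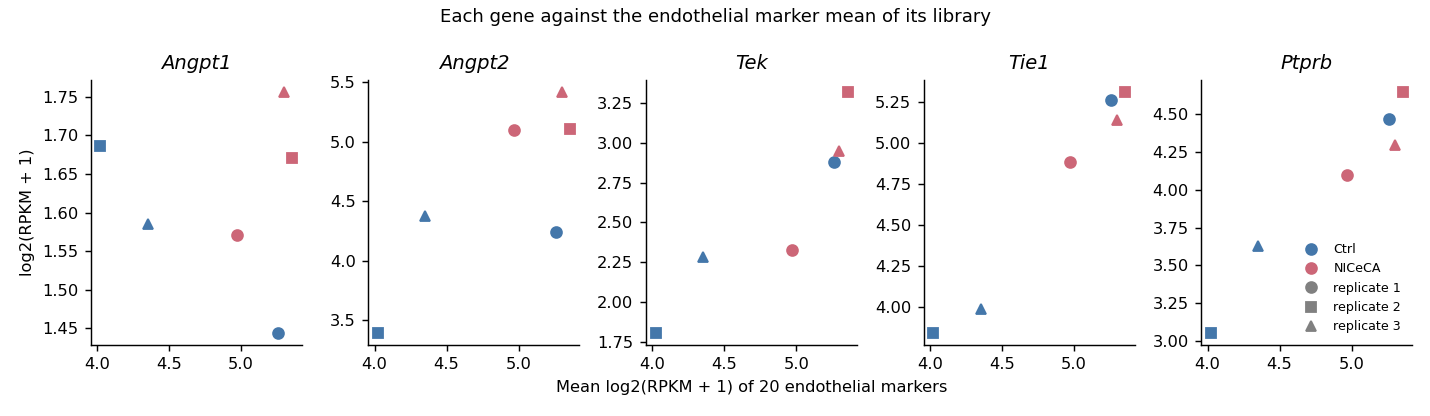
log2(RPKM + 1) of each of the 5 genes against the mean log2(RPKM + 1) of 20 endothelial markers in the same library, 1 point per library, with Ctrl and NICeCA marked apart. Tek, Tie1 and Ptprb rise along the x axis (r = 0.918, 0.989 and 0.978), Angpt1 shows no such rise, and Angpt2 is lower in Ctrl 1 than in each NICeCA library, whose x values span that of Ctrl 1.

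In the plot against the endothelial mean, Ctrl 1 (5.26) lies within the range of the NICeCA libraries (4.97 to 5.36). Its Tek (6.37 RPKM), Tie1 (37.5 RPKM) and Ptprb (21.1 RPKM) also lay between the lowest and the highest NICeCA library. Its Angpt2 (17.9 RPKM) lay below all 3 of them (33.2 to 41.8 RPKM). Ctrl 1 was singled out after the values had been seen and is 1 library, with no replicate at that endothelial level.

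With the endothelial mean of the same library subtracted on the log2 scale, the receptors and Ptprb differed little between the groups. Tie1 was 0.01, -0.18 and -0.36 in Ctrl and -0.09, -0.04 and -0.16 in NICeCA, a difference of 0.084 (exact permutation p = 0.6). Tek differed by -0.12 (exact permutation p = 0.7) and Ptprb by -0.033 (exact permutation p = 0.8). The sign of these small differences changed when single libraries were left out.

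Relative to the same markers, Angpt2 was -1.02, -0.63 and 0.02 in Ctrl and 0.12, -0.25 and 0.12 in NICeCA. Ctrl 3 lay among the NICeCA libraries on this scale, so the groups overlapped. The difference was 0.54, from -0.54 ± 0.526 in Ctrl (SD, n = 3) to NICeCA libraries with an SD of 0.214, with an exact permutation p of 0.2. It ran from 0.30 without Ctrl 1 to 0.82 without Ctrl 3. Angpt1 differed by -0.57 (exact permutation p = 0.4), with Ctrl 1 at -3.81, lower than every other library, and its difference ran from -0.99 without Ctrl 1 to -0.25 without Ctrl 2.

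**Figure D3:**
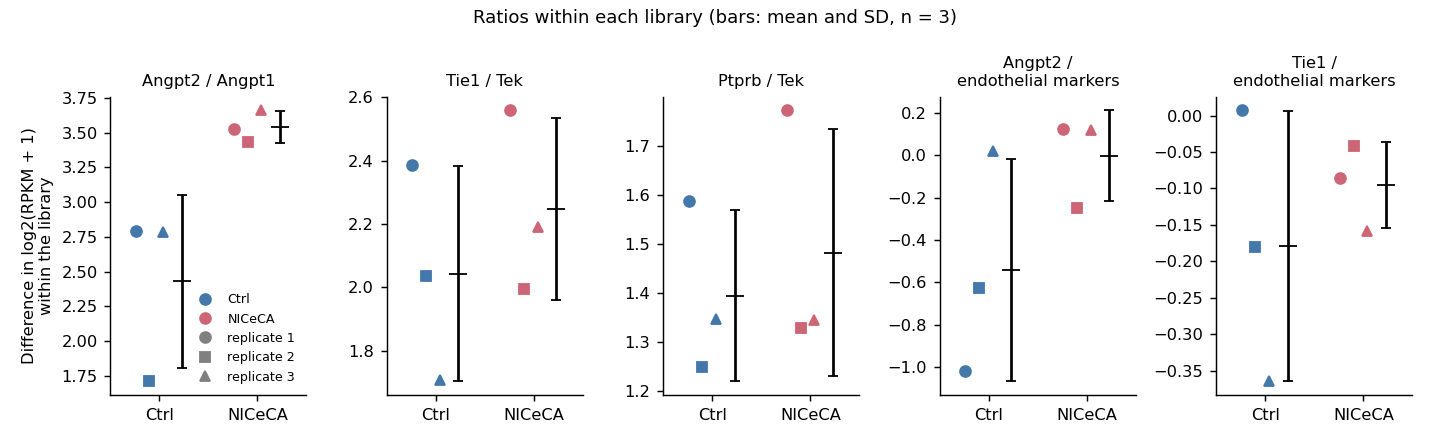
Log2 differences within each library between Angpt2 and Angpt1, Tie1 and Tek, Ptprb and Tek, and of Angpt2 and Tie1 against the endothelial marker mean, 1 point per library, with bars for the mean ± SD of each group (n = 3). Angpt2 against Angpt1 separates the groups (1.71 to 2.79 in Ctrl, 3.44 to 3.66 in NICeCA), and the other differences overlap.

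The plot of differences within libraries also gives the balance among the receptor genes. Tie1 RPKM was 5.88, 5.35 and 3.85 times that of Tek in Ctrl and 7.11, 4.31 and 5.09 times in NICeCA, and the groups overlapped. On the log2 scale, Tie1 over Tek differed between the groups by 0.20 (exact permutation p = 0.5; 0.037 without Ctrl 3 and 0.38 without Ctrl 1) and Ptprb over Tek by 0.09 (exact permutation p = 0.7). Among themselves, Tie1 and Ptprb had r = 0.963 (exact permutation p = 0.00139, adjusted 0.00833), Tek and Ptprb r = 0.942 (exact permutation p = 0.00278, adjusted 0.00833) and Tek and Tie1 r = 0.889 (exact permutation p = 0.00278, adjusted 0.00833). Without the pair of libraries farthest from the median of the first gene, these were 0.956, 0.833 and 0.789. The corresponding rho was 1, 0.943 and 0.943 (exact permutation p = 0.00278, 0.0167 and 0.0167, adjusted 0.0208, 0.0417 and 0.0417). Angpt1 and Angpt2 had r = 0.254 (exact permutation p = 0.631, adjusted 0.860) and rho = 0.371 (exact permutation p = 0.497, adjusted 0.678).

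The genes most like each member over the 6 libraries, by Pearson r among all tested genes, are given as a description with no test. Those most like Tie1 were Olfml2a (0.999), Esam (0.998), Gpihbp1 (0.998), Jup (0.996) and Cd34 (0.996), of which Esam and Cd34 are in the endothelial marker list and Jup encodes the junction protein plakoglobin. Those most like Ptprb were S1pr1 (0.999), Rapgef5 (0.995), Eltd1 (0.995), Adamts9 (0.994) and A4galt (0.994), with S1pr1, the sphingosine-1-phosphate receptor, also in the marker list. Those most like Tek were Plscr2 (0.986), Slco2a1 (0.985), F11r (0.985), Rasgrp3 (0.984) and St3gal6 (0.984), where F11r encodes the junction adhesion molecule JAM-A.

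Angpt2 was most like Golga5 (0.996), Pnrc1 (0.996), Pkd1l3 (0.995), Copg2 (0.993) and Pdk1 (0.993). Pdk1, a kinase that restrains pyruvate entry into mitochondria, rose with a log2 difference of 0.80 (limma adjusted p 0.0388). Angpt1 was most like Vegfc (0.987), the lymphatic growth factor, Lox (0.974) and Col1a2 (0.971), which crosslink and build collagen, Osgin1 (0.973) and Haus1 (0.970). Col1a2 is a fibroblast marker of the list whose 9 tested genes had 4 called lower and 1 called higher. Of all tested genes, 7.68% were called lower and 5.88% higher.

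Mcph1, the gene on the other strand around Angpt2, was at 5.80, 8.42 and 5.13 RPKM in Ctrl and 2.46, 2.97 and 3.79 RPKM in NICeCA, and was examined after these values had been seen. It ran opposite to Angpt2, with a log2 difference of -0.86 (SE 0.19, limma adjusted p 0.0356), a call held in 7 of 16 fits. The exons of the genes do not overlap, though the sources used here do not say whether reads were counted by strand. A FANTOM3 model antisense to Angpt2 within its span was at 0.40 to 1.04 RPKM in all libraries, far below Angpt2.

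The other genes of the pathway were taken as a list of 58 genes by role, of which 57 were found in the table and 48 were tested. In limma, 0 were called higher and 2 were called lower, Pik3r2 and Klf2, where 5.88% and 7.68% of all tested genes were called higher and lower. At an unadjusted p under 0.05, 3 of the list were higher and 8 lower. From voom, 0 were called higher and 2 lower, where it called 5.54% and 10.9% of all tested genes. Of the 48, 21 had a positive difference, against 5509 of all 12320, and the median log2 difference was -0.08, against -0.05. The groups were separated for 15 of the 48, where 40.9% of all tested genes were separated.

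Pik3r2, a regulatory subunit of the PI3 kinase that carries TIE2 signals to AKT, was at 25.9, 45.2 and 26.1 RPKM in Ctrl and 14.8, 11.4 and 16.2 RPKM in NICeCA. All NICeCA libraries lay below all Ctrl libraries, and the log2 difference was -1.11 (SE 0.23, limma adjusted p 0.0323). Klf2, a flow-responsive transcription factor of quiet endothelium, was at 131, 91.7 and 85.2 RPKM in Ctrl and 60.8, 62.7 and 50.5 RPKM in NICeCA, again without overlap. Its log2 difference was -0.79 (SE 0.19, limma adjusted p 0.0376). Both calls were lost without NICeCA 1 (Pik3r2 adjusted p 0.112 and Klf2 0.121 in limma) and without NICeCA 2 (0.131 and 0.130 in limma), where limma called 105 and 27 of the 12320 genes. That for Klf2 was also lost without Ctrl 1, Ctrl 2 or NICeCA 3 (limma adjusted p 0.0527, 0.0684 and 0.0684).

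By role, the other ligands and ligand-like genes had 1 of 4 tested genes with a positive difference, Angptl4, a lipase inhibitor induced by fasting and hypoxia. Angptl4 was at 24.8, 11.8 and 16.6 RPKM in Ctrl and 24.6, 40.2 and 27.2 RPKM in NICeCA, with a log2 difference of 0.78 (SE 0.28, limma adjusted p 0.0886). NICeCA 1 fell just below Ctrl 1. Among 5 integrins that bind angiopoietins, Itgb1 had the highest level and a difference of 0.29 (limma adjusted p 0.216). Among the proteases that shed Tie receptors, Mmp14 was at 93.6, 105 and 101 RPKM in Ctrl and 89.4, 85.4 and 85.1 RPKM in NICeCA, a difference of -0.20 (limma adjusted p 0.242) that left the groups separated.

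The role listed as phosphatases and VE-PTP partners had 3 of 6 tested genes with a positive difference and a median of 0.12. Plvap, which forms the diaphragms of fenestrated endothelium, was placed in this role by the list and not as a shown partner of VE-PTP. It had the highest level of the role, at 230, 90.0 and 114 RPKM in Ctrl and 151, 194 and 179 RPKM in NICeCA. Its difference was 0.38 (limma adjusted p 0.420). It repeated the high Ctrl 1 seen for Tie1. Of 19 tested adaptors and kinases, 7 were positive, with a median of -0.07, and Akt1, the kinase below TIE2, differed by -0.13 (limma adjusted p 0.457). Of 12 tested transcription factors, 7 were positive, with a median of 0.10. Foxo1, the factor that TIE2 signaling restrains and that is known to induce Angpt2, differed by 0.12 (limma adjusted p 0.748) and was named after its value had been seen.

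**Figure D4:**
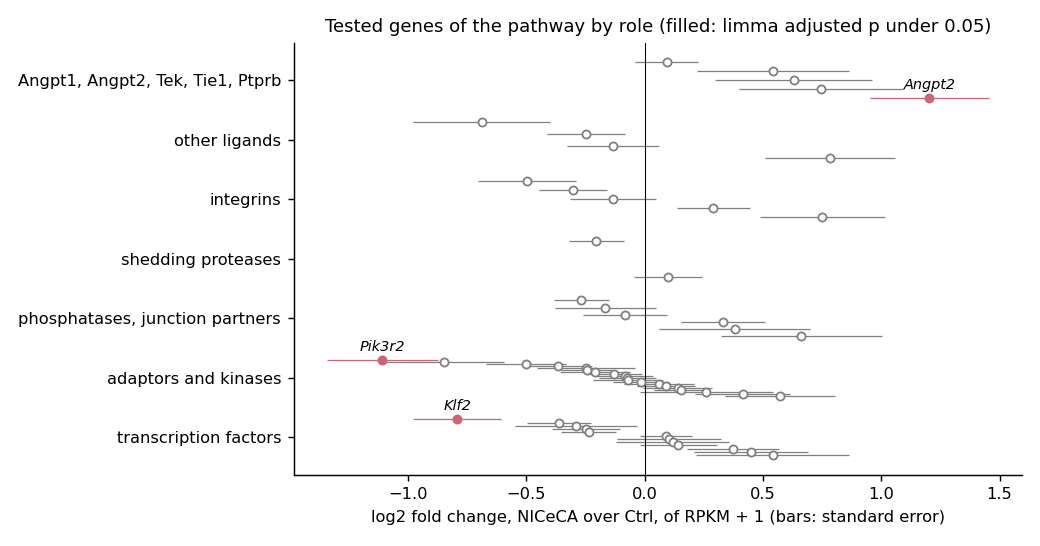
Log2 fold change (NICeCA minus Ctrl, log2(RPKM + 1) scale) of the 5 angiopoietin and Tie genes and of the 48 tested pathway genes by role, 1 point per gene with its SE as a bar, and filled points for genes called by limma. Angpt2 (1.20) is the point called higher, and Pik3r2 (-1.11) and Klf2 (-0.79) are called lower.

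The plot by role places Angpt2 above every gene of the pathway list, while the medians of the roles lie between -0.19 and 0.12. Without Ctrl 1, however, 6 of the list were called, with Angptl4, Cdh5, Erg, Nos3 and Plvap higher and Pik3r2 lower, where 4.05% of all tested genes were called higher and 4.35% lower in that fit. Cdh5, Erg and Plvap are also endothelial markers. All 20 tested endothelial markers had a positive difference in the fit to all libraries. In that fit 2 of them were called higher, where 5.88% of all tested genes were. The median over the 20 was 0.66, which lies between the differences of Tek (0.54) and Tie1 (0.75) and near that of Ptprb (0.63).

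Angpt2 is known to be high in tip cells, the leading cells of sprouts. Of 9 tested tip cell markers, 3 were called higher in NICeCA, where 5.88% of all tested genes were. A positive difference was found for 7 of the 9, while Pdgfb (-0.06) and Unc5b (-0.23) had a negative one. The median over the 9 was 0.61, against 0.66 for the endothelial markers. The list opens with Apln at 14.6, 11.9 and 28.6 RPKM in Ctrl and 18.6, 21.7 and 46.5 RPKM in NICeCA, which overlapped. Esm1, chosen after its values were seen, was at 7.27, 5.65 and 13.0 RPKM in Ctrl and 17.2, 26.7 and 43.1 RPKM in NICeCA and rose by 1.62 on the log2 scale (limma adjusted p 0.0348). Arterial markers had 3 of 5 called higher, against the same 5.88% of all tested genes, and a median of 1.14. Whether the rise of Angpt2 is tied to a shift among endothelial states was not tested.

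**Figure D5:**
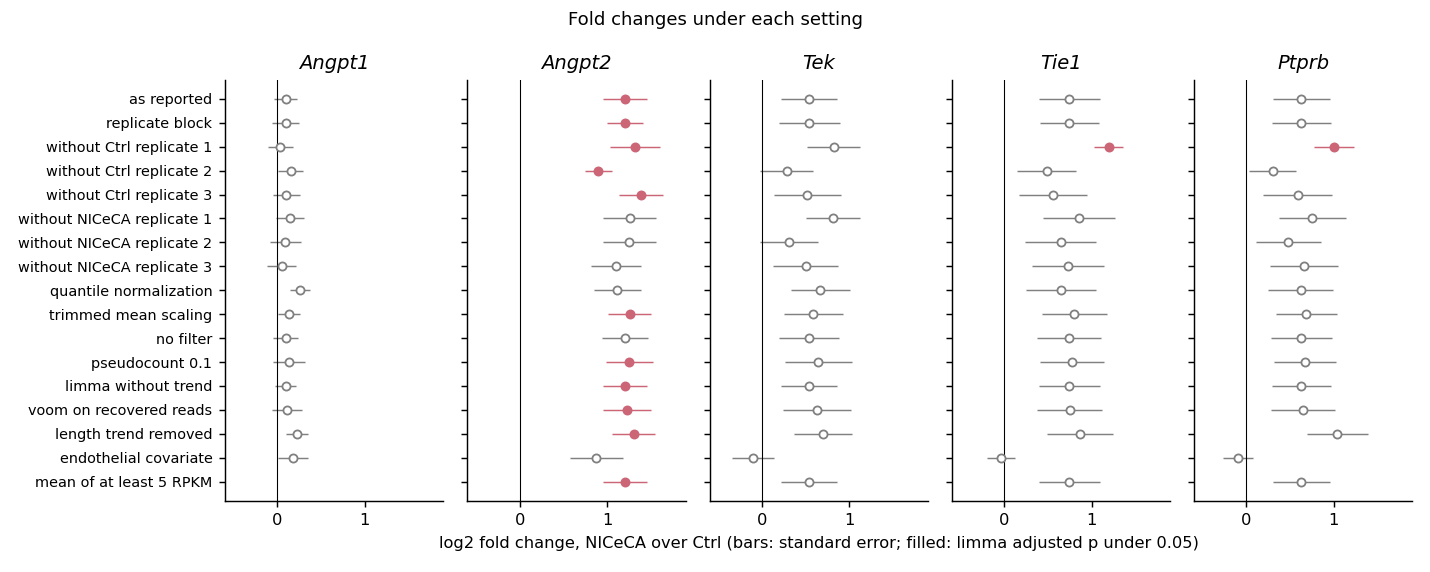
Log2 fold change of Angpt1, Angpt2, Tek, Tie1 and Ptprb (NICeCA minus Ctrl) under each of the fits run, 1 point per fit with its SE as a bar, and filled points for an adjusted p under 0.05 in limma. Angpt2 stays between 0.88 and 1.39 and is called in 11 of 17 fits, while Tek, Tie1 and Ptprb fall to between -0.10 and -0.040 with the endothelial marker mean as a covariate.

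The plot of the fits shows how far each gene depends on the libraries and scaling used. Angpt2 was positive in all 17 fits and past the threshold in 11. Tie1 and Ptprb passed it in 1 fit each, without Ctrl 1, and Tek and Angpt1 in none of those run, at unadjusted limma p-values of 0.129 for Tek and 0.500 for Angpt1 in the fit to all libraries.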

How the data were processed

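Samples were mapped to groups by their titles. The authors deposited RPKM values (reads scaled by gene model length and library total), with replicates kept apart, for 56826 rows, 23473 of RefSeq genes and 33353 of FANTOM3 models. The submitters' processing notes name TopHat2 and mm9, but 99.4% of 21845 matched RefSeq rows overlap their gene at its GRCm38 position. The counting tool and use of strand are not stated in the sources used here. Multiplying RPKM by length and library total gave whole reads (within 0.05 of a whole number) for 100% of values under 1000 reads, so depth is known. Intervals of counts cover counting error only.

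RefSeq rows with a mean of at least 1 RPKM were compared as log2(RPKM + 1) with limma 3.58.1 (lmFit, eBayes with trend; R 4.3.3), two-sided, with Benjamini-Hochberg adjustment over 12320 rows and a threshold of 0.05. This scale understates changes of low genes. Single values were compared between the groups with the exact permutation test over 20 assignments, whose smallest two-sided p is 0.1. Correlations were tested with an exact permutation test over all orders of the 6 libraries, which allows smaller p-values, with Benjamini-Hochberg adjustment over 15 relations. These orders mix the groups, so such a p-value also holds the difference between them. The paper's methods state no test for the bulk RNA-seq. P-values measure the spread between the mice sampled.

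The genes and lists were chosen with earlier results of these data known. Named were the 5 genes, pathway genes called or highest in their role, the 5 genes most alike to each and the first 2 markers of a list; others are said to have been picked after their values were seen. Alternatives were a replicate block, leaving out each library, quantile and trimmed mean scaling (30% at each end), other filters (none, 5 RPKM), a pseudocount of 0.1, no variance trend, voom on recovered reads, removal of the length trend (lowess, span 0.3), an endothelial covariate and, for values relative to endothelial markers, Pecam1 and Cdh5 alone. The limma procedure was tested on simulated data.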

Additional observations from a re-analysis of the deposited data

How the results depend on the processing

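The number of tested genes called by limma, 1671 as reported, was 536 with a replicate block, 771 after quantile normalization, 365 with no filter, 796 with the length trend removed and 0 with the endothelial covariate (2312 genes at an unadjusted p under 0.05), and 27 (without NICeCA 2) to 1661 when 1 library was left out. The share of calls that were higher, 43.4% as reported, was 61.0% with the block, 57.8% after quantile normalization, 58.1% after trimmed mean scaling, 71.2% with no filter, 74.1% with the length trend removed, 33.8% with voom and 38.0% (without NICeCA 3) to 96.3% (without NICeCA 2) when 1 library was left out. The paper's methods name pairs of NICeCA and control mice, but the sources used here do not say which libraries were paired. The correlations of same-numbered deviations were 0.122, -0.34 and -0.18, which with so few libraries cannot show whether replicate numbers mark the pairs. The block on replicate number kept the call for Angpt2 (adjusted p 0.0304 in limma).

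For Angpt2, the log2 difference was 1.12 after quantile normalization (adjusted p 0.0526 in limma), 1.20 with no filter (0.0655) and 0.88 with the endothelial covariate (0.227), none past the threshold, and 0.90 to 1.39 when 1 library was left out. Its adjusted p ran from 0.0251 to 0.227 over all alternatives. With the endothelial covariate Tek was at -0.10, Tie1 at -0.040 and Ptprb at -0.10, turning their sign. Leaving out 1 library gave 0.28 to 0.82 for Tek, 0.48 to 1.20 for Tie1 and 0.30 to 1.00 for Ptprb, with the upper value for Tie1 and Ptprb reached without Ctrl 1. Angpt1 stayed between 0.03 and 0.26 in all 15 alternatives and had no value at a minimum of 5 RPKM.

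Of the pathway list, 2 genes were called as reported, 1 with trimmed mean scaling or with the length trend removed, 0 with a replicate block, no filter or the endothelial covariate, and 0 to 6 when 1 library was left out. When 1 library was left out, Ptprb over Tek ran from -0.057 (without NICeCA 1) to 0.18, Tek relative to endothelial markers from -0.27 to 0.030 (without NICeCA 1), Tie1 from -0.0084 (without Ctrl 3) to 0.18 and Ptprb from -0.11 to 0.038 (without NICeCA 3; 0.019 without Ctrl 3). Tie1 over Tek ran from 0.037 to 0.38, Angpt2 relative to endothelial markers from 0.30 to 0.82 and Angpt1 from -0.99 to -0.25. Angpt2 over Angpt1 kept its direction throughout. The cause of these changes was not tested.

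With 3 libraries per group, the exact permutation test between the groups cannot pass the threshold.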
